A study of Rattus norvegicus with 36 samples.

Results

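Myc, its partner Max, the G1 cyclin Ccnd1 and the immediate early genes Jun, Junb, Fos, Egr1, Ier2 and Ier3 are the 9 genes described. Their levels were followed in rat liver across 6 dose groups of the brominated flame retardant hexabromocyclododecane (HBCD). They were chosen by gene symbol in the platform annotation, with their values at the top dose already known, and they had 15 probe sets among the 31042 tested, or 9 of 14217 gene symbols. Male Harlan Sprague Dawley rats, 7 weeks old when the study began, were gavaged for 5 days with 5 ml/kg of corn oil, alone (vehicle) or with HBCD at a top dose of 641 mg/kg or at lower doses of 64.1, 6.41, 0.641 and 0.06 mg/kg. The left liver lobe was taken 1 day after the last dose, and RNA from it was hybridised to 36 Affymetrix arrays, 6 per group. The labels do not say that the 6 arrays of a group came from separate rats, so p-values measure the spread between arrays, which may be technical. In whole liver, fewer cells of a type and less RNA per cell cannot be told apart. Values are log2 levels as deposited, so a difference of 1 is a doubling.

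Immediate early genes are transcribed within minutes of a growth factor, cytokine or stress signal without new protein synthesis, and their messages are short-lived. Many of them encode transcription factors that carry the signal to later genes. In liver they are best known from the first hours after partial hepatectomy, when hepatocytes leave quiescence. Here the tissue was taken 1 day after the last dose.

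Across the 36 arrays the values ran from 1.53 to 14.59, array medians from 4.83 to 4.90, and within-group correlations between arrays from 0.991 to 0.997. No array was a copy of another. Of 10 hepatocyte markers 9 were measured, and their mean level was 13.07 to 13.14 on vehicle arrays. Macrophage markers (9 of 12 measured) had a mean of 8.46 to 8.82 on vehicle arrays and 8.22 to 8.68 at 641 mg/kg, and at 64.1 mg/kg the mean was 7.57 to 8.54. At 6.41, 0.641 and 0.06 mg/kg it was 7.76 to 9.01, 7.84 to 8.87 and 8.01 to 8.60. At each dose below 641 mg/kg 0 of the 9 were above vehicle in mean. At 64.1 mg/kg 0 of the 9 were called by limma, and 9 were lower at an unadjusted p under 0.05, against 6.92% of all genes, with a median log2 difference of -0.46. Of the 4 measured neutrophil markers, whose mean was only 3.53 to 3.74 at 64.1 mg/kg, 3 were lower there at an unadjusted limma p under 0.05. Their median log2 difference was -0.28, and 0 were called. The part of these shifts in the levels described here was not tested. Of 29 measured markers of 5 other liver cell types 1 was called at 641 mg/kg, where 0.739% of all genes were called lower. It was Cd8a of lymphocytes (0.633-fold, adjusted p = 0.0176, limma), called in 1 of its 3 probe sets. Of the 8 measured lymphocyte markers 3 were above vehicle in mean at that dose, with a list median log2 difference of -0.04. Each dose group was compared with vehicle by limma, a linear model fitted to all probe sets at once, and a probe set was called at a Benjamini-Hochberg adjusted p under 0.05. All dose groups were set against the same 6 vehicle arrays, so the comparisons are not independent of each other.

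Promoter sequences from RefSeq (build GRCr8) were at hand for 4 of the 9 genes, Junb, Egr1, Ier2 and Max. They are shown because immediate early genes are read through short elements next to the start site. The 250 bases before the start are printed for Junb (chr19:40080876-40081125, plus strand), Ier2 (chr19:40399123-40399372, plus strand) and Max (chr6:101395291-101395540, minus strand), 5′ to 3′, with matched motifs in capitals.
Junb: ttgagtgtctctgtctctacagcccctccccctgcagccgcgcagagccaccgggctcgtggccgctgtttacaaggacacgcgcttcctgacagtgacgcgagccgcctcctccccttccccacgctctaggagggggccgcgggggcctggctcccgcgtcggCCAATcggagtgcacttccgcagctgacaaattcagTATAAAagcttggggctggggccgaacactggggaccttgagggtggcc
Ier2: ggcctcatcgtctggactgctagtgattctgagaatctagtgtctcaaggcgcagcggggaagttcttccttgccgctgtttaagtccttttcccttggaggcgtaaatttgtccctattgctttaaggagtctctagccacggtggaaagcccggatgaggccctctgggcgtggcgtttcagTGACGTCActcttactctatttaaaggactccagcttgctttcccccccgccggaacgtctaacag
Max: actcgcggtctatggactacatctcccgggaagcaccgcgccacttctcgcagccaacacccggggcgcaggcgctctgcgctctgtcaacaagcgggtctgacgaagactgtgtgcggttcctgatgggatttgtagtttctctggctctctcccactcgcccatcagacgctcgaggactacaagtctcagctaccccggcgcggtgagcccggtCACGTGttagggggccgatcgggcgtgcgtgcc
The capitals mark CCAAT, 85 bases before the start, and TATAAA, 49 bases before it, in Junb. They mark the cAMP response element TGACGTCA, 66 bases before the start, in Ier2, and the E-box CACGTG, the letters that Myc-Max dimers bind, 33 bases before the start in Max. Both strands of 33469 promoters of the same length were searched. TGACGTCA was found in 1.59% of them, CACGTG in 5.59%, TATAAA in 12.9% and CCAAT in 34.0%, while GGGCGG, found in 30.5%, matched none of the 4. Egr1 held 2 CArG boxes, the element bound by serum response factor, 105 and 83 bases before the start, and CArG boxes were found in 1.497% of all promoters. The CArG and other motifs searched did not overlap one another in these 4 promoters. These are matches of letters in a window, not tests of binding.

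Myc encodes the transcription factor that, paired with Max, drives ribosome building, metabolism and cell growth. Its level ran from 6.77 through a median of 7.20 to 8.38 on the vehicle arrays, and from 7.79 through 8.68 to 9.03 on the 641 mg/kg arrays. The groups overlapped: 4 of the 6 top-dose arrays lay above every vehicle array, and all 6 lay above the vehicle mean. The means were 7.36 ± 0.64 (SD, n = 6) and 8.56 ± 0.50 (SD, n = 6), a log2 difference of 1.20 (SE 0.31), or 2.30-fold. This difference was among the values by which the genes were picked, so it is given as a description, without a test. It was the largest of the 9 genes in size at this dose.

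At the 4 lower doses the mean of Myc was 0.19 to 0.39 above that of vehicle in log2. In rising order of dose its median was 7.83 (range 7.30 to 8.14), 7.29 (7.20 to 8.56), 7.62 (7.24 to 8.66) and 7.72 (6.68 to 8.81). Of these 24 arrays 20 fell inside the vehicle range and 15 lay above the vehicle mean. From the lowest of these doses up, the fitted folds over vehicle were 1.31 (95% confidence interval 0.849 to 2.01), 1.14 (0.739 to 1.75), 1.31 (0.851 to 2.02) and 1.19 (0.771 to 1.83). None was called by limma (smallest adjusted p 0.9751), and the intervals still allow up to a 2.02-fold rise.

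By mean, the groups ran in the order 641, 6.41, 0.06, 64.1, 0.641 mg/kg and vehicle. The step from 641 to 6.41 mg/kg was 0.81 in log2, and every step between later neighbours was at most 0.19. The within-group SD of single arrays was 0.57. Since the 641 mg/kg values were among those that chose the genes, this order and its steps are a description only. Of the 30 arrays outside the top dose, 11 lay above the lowest 641 mg/kg array and 1, at 64.1 mg/kg (8.81), lay above the 641 mg/kg median. Above all 30 of them were 3 top-dose arrays.

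**Figure D1:**
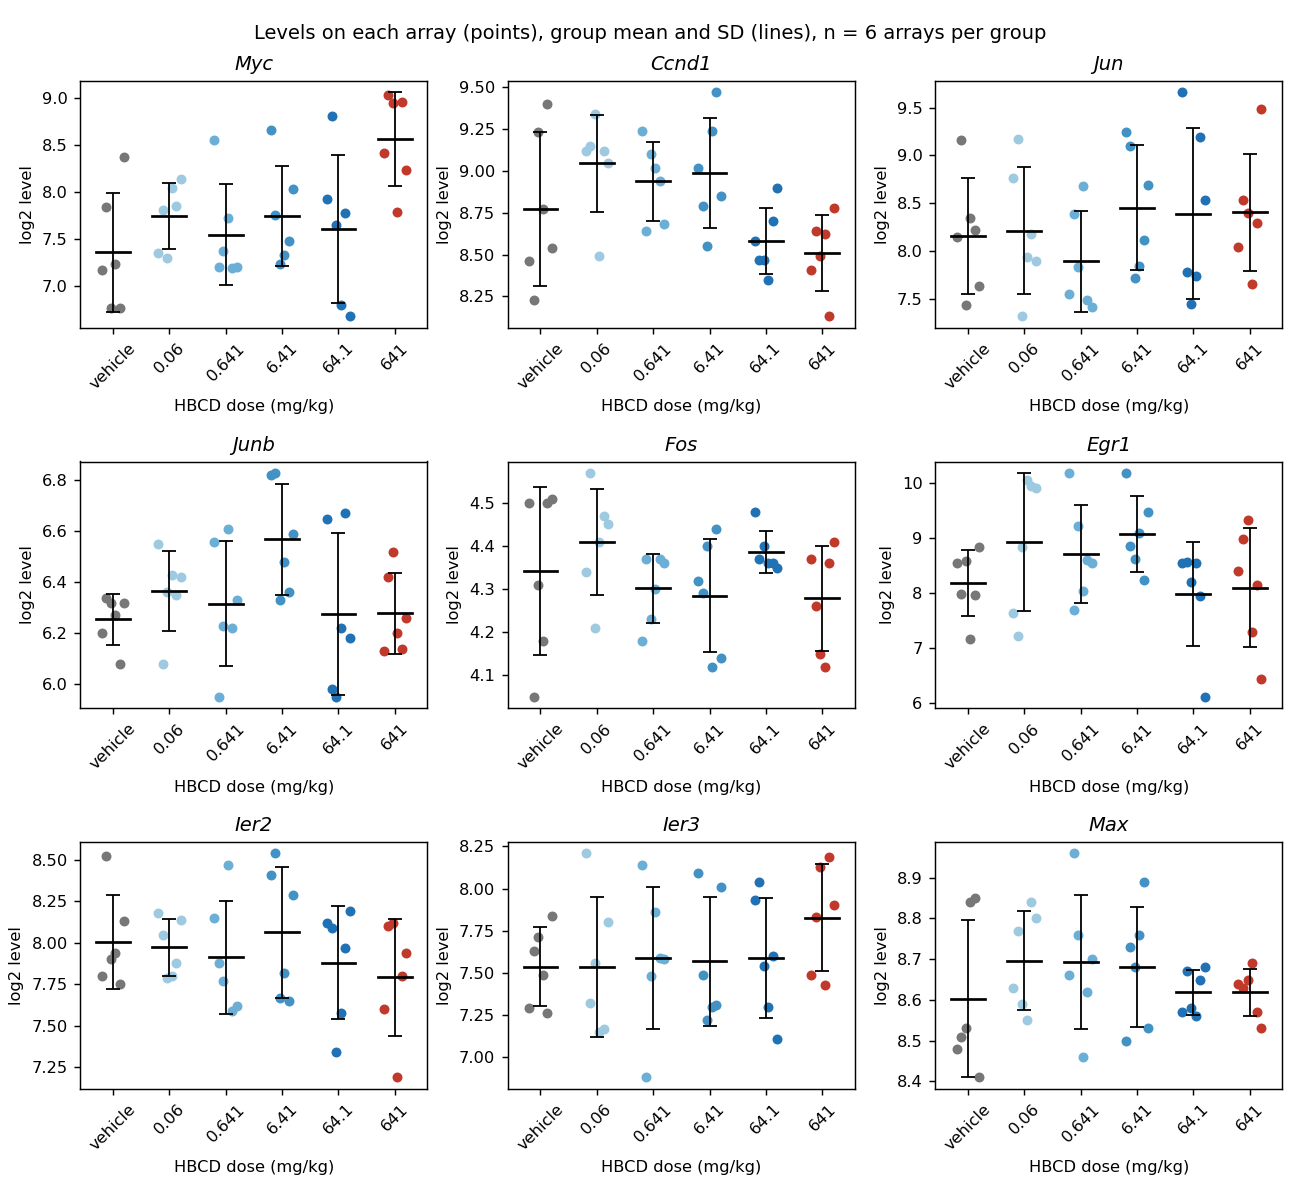
Levels of the 9 genes on each array (log2, vertical axes) by HBCD dose in mg/kg (horizontal axes), with points for arrays and lines for the group mean and SD, n = 6 per group. The 641 mg/kg arrays of Myc run from 7.79 to 9.03 against 6.77 to 8.38 on vehicle arrays, and these groups overlap in each of the 9 genes.

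Max, the partner that Myc needs to bind DNA, varied little. Its vehicle arrays ran from 8.41 through 8.52 to 8.85 and its 641 mg/kg arrays from 8.53 through 8.63 to 8.69, so the top-dose arrays lay inside the vehicle range. The log2 difference at 641 mg/kg was 0.01 (SE 0.08), and over all 36 arrays Max spanned a 1.46-fold range. These values are from its probe set with the highest mean. Its 2 probe sets varied together only in part (r = 0.38 within groups). The other spanned a 1.55-fold range and stood at -0.06 in log2 at 641 mg/kg.

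Ccnd1, the D-type cyclin that moves cells through G1, had a lower mean at the top dose than in vehicle. Vehicle arrays ran from 8.23 through 8.65 to 9.40 and 641 mg/kg arrays from 8.13 through 8.56 to 8.78. The groups overlapped, and 1 of 6 top-dose arrays lay above the vehicle mean. The fold was 0.834 at 641 mg/kg, 0.874 (0.694 to 1.10) at 64.1 mg/kg, and between 1.12 and 1.21 at the 3 lowest doses, none of the 4 lower-dose values being called (limma adjusted p 0.951 to 1.00). Its 3 probe sets varied together within groups, with r between 0.861 and 0.939, and all were lower in mean at 641 mg/kg.

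Jun, Junb and Fos encode subunits of the dimeric AP-1 factor. Jun had vehicle values from 7.44 through 8.18 to 9.16 and 641 mg/kg values from 7.66 through 8.35 to 9.49, nearly the same range, with a fold of 1.19. Its 3 probe sets varied together closely (r 0.971 to 0.986), so the wide spread of Jun, 5.08-fold over all arrays, was shared by its probe sets.

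Junb ran from 6.08 through 6.29 to 6.34 on vehicle arrays and from 6.13 through 6.23 to 6.52 at 641 mg/kg, a fold of 1.02. At 6.41 mg/kg it ran from 6.33 through 6.54 to 6.83, and 5 of 6 arrays lay above every vehicle array. That 1.24-fold difference (95% confidence interval 1.05 to 1.46) was the only one at the lower doses whose interval lay above 1 among the probe sets that represent the 9 genes, and it was not called (limma adjusted p = 1.00).

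Fos was low on the scale of the array, below the median of all probe sets on each of the 36 arrays. It ran from 4.05 through 4.40 to 4.51 on vehicle arrays and from 4.12 through 4.31 to 4.41 at 641 mg/kg, so the groups overlapped. Its 2 probe sets did not vary together (r = -0.11 within groups), and no Fos value at any dose was called.

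Egr1 encodes a zinc-finger factor induced by growth factor signals. It had the widest spread of the 9 genes: 16.8-fold over the 36 arrays, with a within-group SD of 0.94 that exceeded the SD of 99.9% of all probe sets. Vehicle arrays ran from 7.17 through 8.26 to 8.84 and 641 mg/kg arrays from 6.43 through 8.28 to 9.32, a broader range around the same median. From the lowest dose up, its folds were 1.68 (0.833 to 3.40), 1.44 (0.714 to 2.91), 1.85 (0.918 to 3.74), 0.872 (0.432 to 1.76) and, at the top dose, 0.942. Even a 1.85-fold difference was within the spread between arrays, although all 6 arrays at 6.41 mg/kg lay above the vehicle mean.

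Ier2 and Ier3 are immediate early genes that encode no AP-1 subunit, and Ier3 is known as a regulator of cell survival. Ier2 ran from 7.75 through 7.92 to 8.52 on vehicle arrays and from 7.19 through 7.87 to 8.12 at 641 mg/kg, a fold of 0.860. Ier3 ran from 7.26 through 7.56 to 7.84 on vehicle arrays and from 7.43 through 7.86 to 8.19 at 641 mg/kg, a fold of 1.23. Both genes overlapped between the groups. At the 4 lower doses the log2 differences of Jun, Fos, Ier2, Ier3 and Max lay between -0.26 and 0.30, both of them values of Jun, whose within-group SD was 0.67, and none was called by limma.

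At 641 mg/kg, 1 of the 15 probe sets, that of Myc, passed the threshold, and none was lower, where 1.65% of all probe sets passed in either direction, 1.13% higher and 0.512% lower. Since that contrast chose the genes, nothing is read from the count. The call was also unstable, being lost in 8 of 12 fits that left out 1 array of either group. These were the fits without vehicle replicates 1, 3, 4 and 5 and without 641 mg/kg replicates 1, 2, 3 and 5. Over the 12 fits the log2 difference stayed between 1.09 and 1.41. Of the other 8 genes the log2 difference was between -0.26 and 0.29, each by its probe set with the highest mean. A second probe set of Ccnd1 lay outside this range at -0.39 (0.765-fold), with 0 of 6 top-dose arrays above the vehicle mean. At 64.1 mg/kg, where 0.0419% of all probe sets were called, and at the 3 lower doses, where 0% were, 0 of 15 were called. At an unadjusted p under 0.05, 0 of 15 stood at 64.1 mg/kg and 1 at 6.41 mg/kg (Junb), against 5.94% and 4.13% of all probe sets. At 0.641 mg/kg there were 0, and at 0.06 mg/kg 1 (the third probe set of Ccnd1, higher), against 4.76% and 4.17%. At 641 mg/kg there were 2 (Myc and the second Ccnd1 probe set), against 11.4%, and nothing is read from that count either. At no dose did the treated and vehicle arrays of any of the 15 fail to overlap, where from the lowest dose up 0.135%, 0.151%, 0.18%, 0.351% and 1.71% of all probe sets did not overlap. Whether the Myc difference exceeds that of each other gene was not tested.

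**Figure D2:**
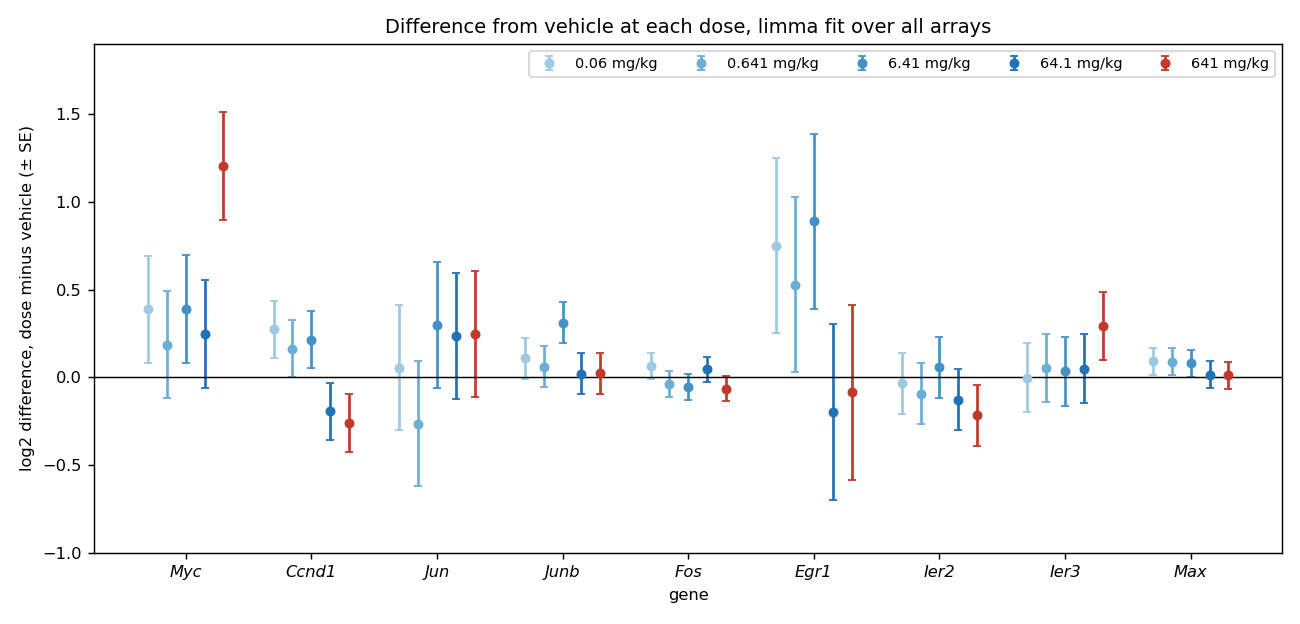
Difference from vehicle in log2 (vertical axis, ± SE from the limma fit over all arrays) for each gene (horizontal axis) at each dose. Each gene is shown by its probe set with the highest mean. Myc at 641 mg/kg stands at 1.20, and the differences of the other 8 genes at that dose lie between -0.26 and 0.29.

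The genes were then compared by how they varied among arrays given the same dose, a measure the choice of genes did not use. The group mean was subtracted from each level, and the 36 pairs of genes were tested by permuting arrays within groups, 100000 times, with Benjamini-Hochberg adjustment over the 36 pairs. Of the pairs, 9 were called, 7 positive and 2 negative, and the same 9 by Spearman's rho. How often pairs of other genes would be called in this way was not examined. The count is therefore not read as particular to these genes.

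Myc varied together with 3 of the immediate early genes. On an array where Myc was above its group mean, Ier3 (r = 0.62, rho = 0.60, adjusted permutation p = 0.0024), Egr1 (r = 0.58, rho = 0.58, adjusted permutation p = 0.0024) and Ier2 (r = 0.55, rho = 0.60, adjusted permutation p = 0.0119) tended to be above theirs, over 36 arrays. Without the 2 arrays farthest from the median, r was 0.58, 0.58 and 0.56. The sign was the same in all 6 groups for Egr1 and Ier2, and in 5 of 6 for Ier3, whose 0.06 mg/kg arrays gave r = -0.47. Without the 641 mg/kg group, the Myc and Ier2 pair was not called (r = 0.50, adjusted permutation p = 0.051). Myc did not pass with Jun (r = 0.20), Junb (0.32), Fos (-0.01), Ccnd1 (-0.28) or Max (-0.31).

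Ier2 varied with the AP-1 subunits Jun (r = 0.68, rho = 0.68, adjusted permutation p = 0.0024) and Junb (r = 0.60, rho = 0.63, adjusted permutation p = 0.0072), and r was positive in all 6 groups for both pairs. Ier3 varied with Ier2 (r = 0.54, rho = 0.57, adjusted permutation p = 0.0113) and Junb (r = 0.53, rho = 0.53, adjusted permutation p = 0.013). Egr1 did not pass with Jun (r = -0.30) or Ier2 (r = 0.07).

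Max went the other way: r was -0.51 with Ier3 (rho = -0.49, adjusted permutation p = 0.013) and -0.43 with Junb (rho = -0.43, adjusted permutation p = 0.0226). The Junb and Max pair was lost when arrays were centred on their medians (r = -0.39, adjusted permutation p = 0.0518) or genes were taken as the mean of their probe sets (r = -0.39, adjusted permutation p = 0.114). No pair with Fos or Ccnd1 was called.

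Array measures that could vary with these genes were compared the same way, in a family of 36 relations added after the data were seen, and 0 were called. The largest for Myc was with the mean of the hepatocyte markers (r = -0.52, rho = -0.44, permutation p = 0.00427, adjusted permutation p = 0.127, r = -0.46 without 2 arrays). Ier3 (r = -0.47, rho = -0.51, adjusted permutation p = 0.127) and Ier2 (r = -0.42, rho = -0.45, adjusted permutation p = 0.162), both of which varied with Myc, had r of the same sign with these markers. The mean of those markers was 12.94 to 13.04 at 641 mg/kg, below the 13.07 to 13.14 of the vehicle arrays, while 0 of the 9 were called by limma (5 lower at an unadjusted p under 0.05, against 13.8% of all genes in either direction). Their part in the Myc difference, or in the relations of Myc with Ier2 and Ier3, was not tested. For Max the largest was with the 3′ minus 5′ actin difference, an RNA quality measure (r = 0.48, rho = 0.37, permutation p = 0.0162, adjusted permutation p = 0.145).

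**Figure D3:**
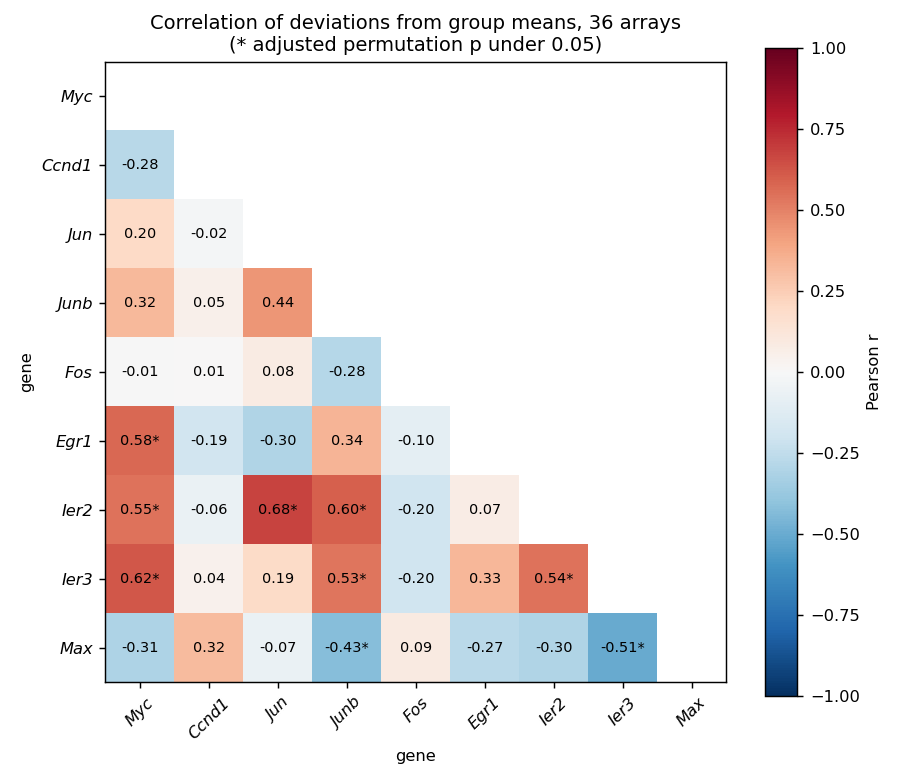
Pearson r between the deviations of each pair of genes from their group means over 36 arrays, coloured by sign and size. Stars mark the 9 pairs called, among them Myc with Egr1 (0.58), Ier2 (0.55) and Ier3 (0.62).

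Of 7411 genes with a mean of at least 6, the 5 whose deviations were most like those of Myc were Gadd45a (r = 0.82), Dusp6 (0.75), Gadd45g (0.72), Nfil3 (0.70) and Ip6k1 (0.64), over 36 arrays. They were picked as the highest of many, so no p is given. Gadd45a and Gadd45g encode stress sensors of the growth arrest and DNA damage family, and Dusp6 a phosphatase that turns off ERK. At 641 mg/kg none of the 5 was called: Gadd45a was at 1.38-fold (adjusted p = 0.422, limma) and Dusp6 at 1.23-fold (adjusted p = 0.788, limma). Hes1, a Notch target, had the lowest r with Myc (-0.79) and was singled out after its value was seen. By levels as measured, dose included, Txnrd1 (r = 0.70), an Nrf2 target of the thioredoxin system, and Degs1 (r = 0.69) joined Gadd45a (0.79), Nfil3 (0.72) and Dusp6 (0.70). Since dose entered this likeness, their values at 641 mg/kg, 1.29-fold for Txnrd1 and 1.11-fold for Degs1, are given without a test.

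The same search gave Gramd2b (r = 0.78), Ssu72 (0.77), Nceh1 (0.76), Ppp2r2a (0.76) and Gtf2b (0.73) for Egr1. For Fos the highest r was 0.54, with Isy1, followed by Ppp6r2, Gsta4, Gcat and Rundc1 (0.51).

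**Figure D4:**
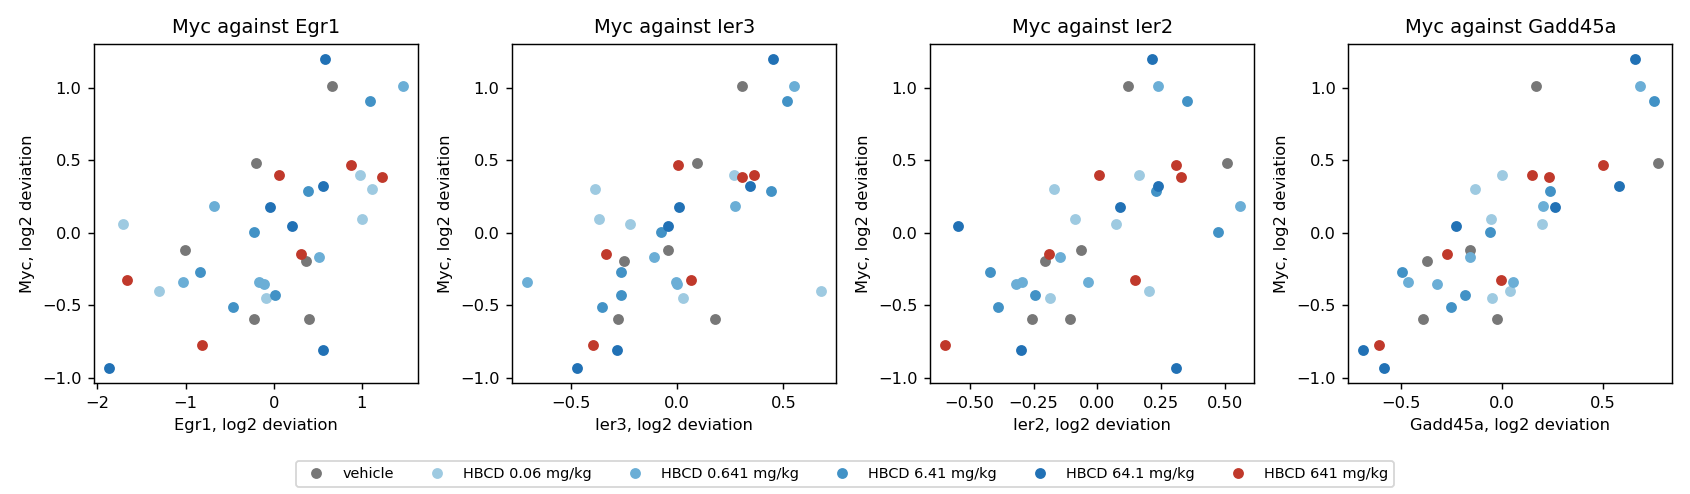
Deviation of Myc from its group mean (log2, vertical axes) against that of Egr1, Ier3, Ier2 and Gadd45a (log2, horizontal axes), each point an array coloured by dose. Points rise from lower left to upper right, with r = 0.58 for Egr1 and r = 0.82 for Gadd45a.

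The other genes of the pathway were taken from lists written with earlier results of these data known, so the counts are descriptions. At 641 mg/kg 1.74% of all 14217 genes were called higher and 0.739% lower, and the median log2 difference of all genes was -0.01. Of 16 other members of the Myc network, 1 was called higher, Mxi1, a Max partner that opposes Myc. It went from 7.69 ± 0.05 to 7.99 ± 0.11 (SD, n = 6 each), 1.24-fold (adjusted p = 0.0225, limma). Its call came from 1 of its 2 probe sets, and it was lost without vehicle replicate 2 (adjusted p = 0.0526, limma) or 4 (0.05002) and without 641 mg/kg replicate 1 (0.0600) or 5 (0.0712). The median of the list was 0.05, with 10 of 16 above 0, and 2 were higher and 0 lower at an unadjusted limma p under 0.05.

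Textbook growth targets of Myc, among them nucleolar, polyamine and glycolysis genes, did not pass: 0 of 30 were called by limma, with a median of 0.06, 24 of 30 above 0, and 6 higher and 1 lower at an unadjusted p under 0.05, a level reached by 13.8% of all genes. Odc1, the first enzyme of polyamine synthesis, stood at 1.04-fold, Ncl, a nucleolar protein, at 1.10-fold, and Ldha, which makes lactate, at 0.906-fold. Odc1, Ncl and Ldha were chosen after their values were seen and do not stand for the list. Tfrc, the transferrin receptor, was nearest to the threshold (1.63-fold, adjusted p = 0.0518, limma). It was called with quantile normalisation repeated (0.0458), with probe sets under 6 in each group left out (0.0247) and with means of probe sets (0.0457). Leaving out vehicle replicate 3 (0.0484) or 641 mg/kg replicate 6 (0.0231) also gave a call. Limma did not call it with a replicate block (adjusted p = 0.0506), centred arrays (0.0539), a robust variance trend (0.0781) or only the 2 groups compared (0.0613). Nor was it called without any other single array (limma adjusted p up to 0.158).

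Of 35 other immediate early genes 0 were called by limma (4 higher and 5 lower at an unadjusted p under 0.05), with a median of -0.06. Sik1, a kinase induced by cAMP, had the smallest p (0.843-fold, adjusted p = 0.0955, limma). Of 13 other AP-1 family genes 0 were called (1 higher and 1 lower unadjusted), and the smallest p was that of Maff (1.22-fold, adjusted p = 0.213, limma). Among 15 G1 cyclins and inhibitors, Cdkn2c, an inhibitor of CDK4 and CDK6, rose from 7.16 ± 0.16 to 7.53 ± 0.11 (SD, n = 6 each), 1.30-fold (adjusted p = 0.00988, limma), by 1 of its 2 probe sets. With its 2 probe sets averaged the log2 difference was 0.17 in place of 0.38, and it was not called (adjusted p = 0.0614, limma). Of these 15 genes 9 were above 0, with a median of 0.01, and 3 were higher and 0 lower unadjusted. Of 12 growth factor signalling genes 0 were called (1 lower unadjusted, none higher), with a median of -0.09 and 1 of 12 above 0. Over the 121 entries of these 6 lists limma called 0 at each of the 4 lower doses, where 0.0703% of all genes were called at 64.1 mg/kg and 0% below it. At an unadjusted p under 0.05 there were 4 at 64.1 mg/kg, 2 at 6.41, 4 at 0.641 and 3 at 0.06 mg/kg, against 6.92%, 3.62%, 4.67% and 3.81% of all genes.

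**Figure D5:**
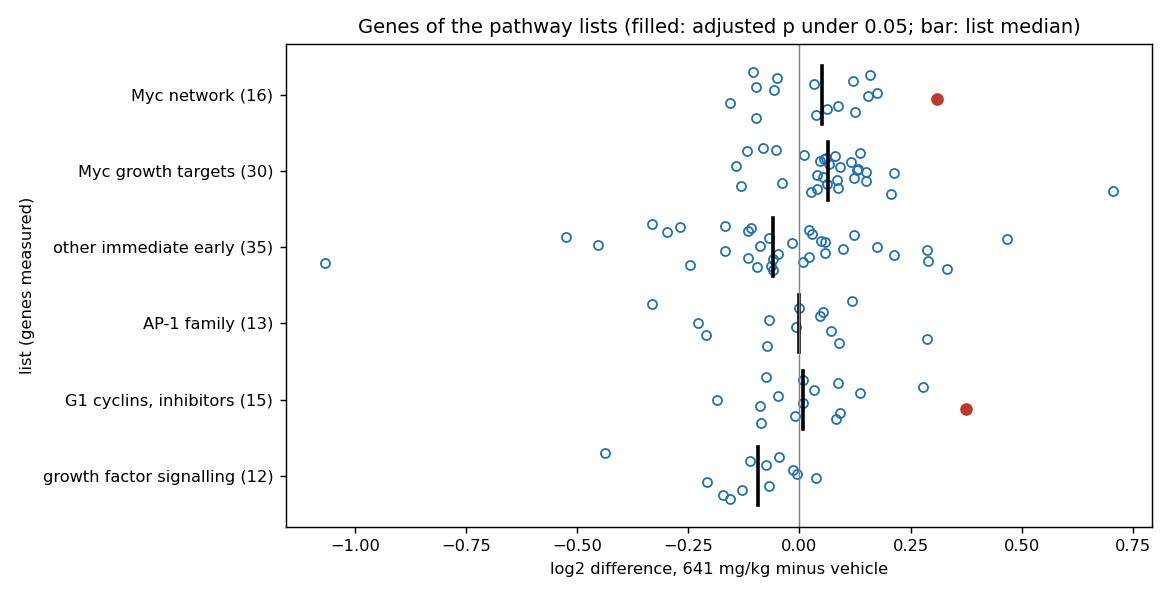
Log2 difference at 641 mg/kg from vehicle (horizontal axis) for each measured gene of the 6 lists (vertical axis), with filled points for adjusted p under 0.05 and bars for list medians. The filled points are Mxi1 and Cdkn2c, and the list medians lie between -0.09 and 0.06.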

How the data were processed

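Liver RNA from 36 samples in 6 groups was measured on Affymetrix arrays. Per the submitters' processing notes, the authors made the deposited log2 values with RMA, which corrects background, normalises quantiles and summarises probes, with the affy package (version not given in the sources used here). Those values were used as deposited. After 57 control probe sets were left out, 31042 were tested: 20826 had 1 gene symbol, 436 several and 9780 none. A gene was represented by its probe set with the highest mean. The series names the R/maanova package at a 5% false discovery rate; limma 3.58.1 in R 4.3.3, tested on simulated data, was used instead, with group as the single factor over 36 arrays and Benjamini-Hochberg adjustment over all tested probe sets. Correlations used Python 3.11.15 with scipy 1.17.1.

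The members and lists were chosen with earlier results of these data known. Named genes were the 9 members, in each list up to 3 genes called each way with the largest fold at 641 mg/kg, or else the gene with the smallest p, and the 5 genes most like Myc, Fos and Egr1. Odc1, Ncl, Ldha and Hes1 fall outside that rule and were chosen after their values were seen. Replicate numbers did not pair the arrays. The alternatives tried were centring arrays on their medians, repeated quantile normalisation, a group mean of at least 6, a variance trend with robust moderation, fits on 2 groups, means over probe sets, a replicate block and leaving out arrays, and, for correlations, the 641 mg/kg group. The number of arrays limits the precision.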

Additional observations from a re-analysis of the deposited data

Results flagged for a closer look

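Among 54 groups of 6 arrays, 9 genes in 6 groups, 3 held an array that stood apart from the other 5, and chance gives about 1 in 20 groups. Ccnd1 was lowest on 0.06 mg/kg replicate 4 at 8.4875, with the next array at 9.0532. Fos was highest on 64.1 mg/kg replicate 1 at 4.4773, with the next array at 4.3972. Egr1 was lowest on 64.1 mg/kg replicate 6 at 6.1077, with the next array at 7.9388, and without that array its difference from vehicle at 64.1 mg/kg was 0.18 in log2 in place of -0.20. None of the 3 arrays was in the vehicle or the 641 mg/kg group.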

How the results depend on the processing

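The Myc difference at 641 mg/kg stayed positive under each alternative run. It was among the values that chose the genes, so these values are a description. It was 1.20 with the replicate block, 1.21 with arrays centred on their medians and 1.20 with quantile normalisation repeated. When eBayes used a robust variance trend it was 1.20 and no longer past the threshold, which left 0 of 15 probe sets called. With single arrays left out it ranged from 1.09 to 1.41, and 0 to 1 of the 15 were called. Same-numbered arrays of different groups did not pair: the correlation of their deviations ran from -0.25 to 0.32 in 90 pairs, 14 of them over 0.1, and the block changed no call of the 9 genes. List genes called lower at 641 mg/kg, 0 as reported, were 2 (Ldha and Sik1) without dim probe sets, those under 6 in each group, 1 (Ldha) with the robust trend, and 0 to 1 without single arrays (Sik1, without vehicle replicate 5). Those called higher, 2 as reported (Mxi1 and Cdkn2c), were 3, with Tfrc, when quantile normalisation was repeated or dim probe sets were left out, 2 with genes as means of probe sets (Mxi1 and Tfrc), and 1 to 3 without single arrays. The cause of these changes was not tested.

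Small differences, none of them called, changed sign in some fits. With arrays centred, Ier3 at 0.06 mg/kg was 0.0036, and with means of probe sets Max at 64.1 mg/kg was -0.061. Leaving out single arrays gave these ranges in log2. At 0.06 mg/kg Ier2 ran from -0.085 to 0.067, Ier3 from -0.14 to 0.077 and Jun from -0.14 to 0.26. At 0.641 mg/kg Myc ran from -0.015 to 0.39, below 0 without 0.641 mg/kg replicate 1, Ier2 from -0.21 to 0.0071 and Ier3 from -0.057 to 0.19. At 6.41 mg/kg Ier2 ran from -0.038 to 0.16 and Ier3 from -0.070 to 0.10. At 64.1 mg/kg Egr1 ran from -0.40 to 0.18, Fos from -0.013 to 0.080, Ier3 from -0.040 to 0.14, Jun from -0.018 to 0.44, Junb from -0.059 to 0.085 and Max from -0.023 to 0.065. At 641 mg/kg Egr1 ran from -0.33 to 0.25, Junb from -0.025 to 0.053 and Max from -0.026 to 0.062. Signal over background was not analysed here, so no limit of detection is given for Fos.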
